A study of Mus musculus with 6 samples.

Results

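The 3 COUP-TF receptor genes Nr2f1, Nr2f2 and Nr2f6 and 2 further genes often used as markers of embryonic atrial muscle, Vsnl1 and Stard10, were described in the ventricles of Tbx5ua knockdown (KD) embryos. These 5 of the 23284 genes in the deposited table were taken by their symbols. They were chosen by name with their WT and KD values already known, so the difference between the groups is given as a description and was not tested. The groups were 3 WT and 3 KD (Tbx5ua -/-) C57BL/6 embryos at E9.5, all made by tetraploid complementation, in which the injected ES cells form the embryo proper. In the KD embryos polyadenylation signals had been inserted into both alleles of Tbx5ua, a long non-coding RNA divergent from Tbx5, by genome editing and clonal selection in C57BL/6J ES cells. More than 1 edited ES cell line was made, and the line behind each sequenced embryo is not given in the sources used here. The study compared the groups to find the genes affected by the loss of Tbx5ua.

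COUP-TF proteins are orphan nuclear receptors that bind repeats of the AGGTCA half-site and mostly repress transcription. Nr2f2 (COUP-TFII) is known for its role in atrial identity and in venous endothelium, and is also expressed in mesenchyme and in the epicardium. Nr2f1 (COUP-TFI) is its closest relative, and Nr2f6 (EAR2) is a more distant and broadly expressed one. Vsnl1 encodes visinin-like protein 1, a calcium sensor with EF hands, and Stard10 encodes a START domain protein that transfers phospholipids between membranes. No atrial sample was part of the series, so the label of atrial marker could not be checked against atrial tissue.

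The table holds 1 FPKM value (a read count corrected for the length of the transcript and the sequencing depth) per gene for each group of 3 embryos, and no value for a single embryo. No SD or interval over embryos can therefore be computed, and whether the groups overlap is not known. The p-values of the authors' own comparison, which the table also holds, were not used. The read depth is unknown too. Defining markers of ventricular muscle were present, with no atrial sample to set them against. Myl2, the ventricular myosin light chain, had 10924 FPKM in WT against 12702 FPKM in KD, and Irx4, a ventricular transcription factor, had 31.8 and 27.6 FPKM, with the WT value first here and in every such pair. In bulk tissue a difference in the number of cells of a type and a difference in RNA per cell cannot be told apart. The RNA targeted by the knockdown, Tbx5ua, is not analysed here and could not serve as a check of the group labels. By qRT-PCR, the paper reports strong repression of Tbx5ua in KD embryos at E9.5.

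The COUP-TF genes are paralogs, and their shared sequence bears on how reads can be assigned to them. In the GENCODE coding sequences Nr2f1 (1260 bases) and Nr2f2 (1242 bases) had 83.6% identical bases over the aligned positions. Nr2f6 (1170 bases) had 73.5% with Nr2f1 and 71.4% with Nr2f2. The longest run that Nr2f1 and Nr2f2 share is 59 bases, in the part that encodes the first zinc finger of the DNA-binding domain. It is shown here with the same stretch of Nr2f6, where capitals mark the 14 bases that differ from the other 2 genes. Positions are counted from the A of the start codon.

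Nr2f1, bases 232 to 290: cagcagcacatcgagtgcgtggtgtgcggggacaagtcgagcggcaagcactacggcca

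Nr2f2, bases 220 to 278: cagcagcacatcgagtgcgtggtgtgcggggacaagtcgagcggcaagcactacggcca

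Nr2f6, bases 154 to 212: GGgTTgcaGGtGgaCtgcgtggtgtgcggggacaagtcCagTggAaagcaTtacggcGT

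Of 1231 windows of 30 bases in the Nr2f1 coding sequence, 41 (3.33%) occurred unchanged in that of Nr2f2 and 0 in that of Nr2f6. Reads that lie wholly in such shared sequence cannot be assigned to 1 of the paralogs. Within these coding sequences, a read longer than the longest shared run, of 59 bases, reaches bases that differ. The untranslated parts of the transcripts were not compared, although the GENCODE exons hold 5093 bases for Nr2f1 and 8625 for Nr2f2. How the authors' counting treated shared reads is not given in the sources used here. No window of Nr2f2 was shared with Nr2f6.

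All 5 genes, chosen with these values known, had a higher group value in KD than in WT. The ratios ran from 1.06 for Stard10 to 2.06 for Nr2f2. Over the 11606 genes that reached 1 FPKM in one group or both, 50.9% had a higher value in KD. Nr2f2, at chr7:70351950-70411146 of mm10 in the table, had 2.01 FPKM in WT against 4.15 FPKM in KD. This is a log2 fold change (KD over WT) of 1.04. Nr2f1, at chr13:78188973-78236564, had 0.552 FPKM in WT against 1.07 FPKM in KD, a ratio of 1.94 and a log2 fold change of 0.96. Both genes thus differed by a similar ratio, at levels 3.65 times apart in WT and 3.87 times apart in KD. Nr2f6, at chr8:71374119-71381952, had 22.5 FPKM in WT against 31.8 FPKM in KD, a ratio of 1.41 and a log2 fold change of 0.50. The ratio was thus smaller for the most abundant COUP-TF gene, while its gain in FPKM was the largest of the 5 genes.

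Vsnl1, at chr12:11325245-11436649, had 0.555 FPKM in WT against 1.14 FPKM in KD, a ratio of 2.05 and a log2 fold change of 1.04. Its levels lay within 0.1 FPKM of those of Nr2f1 in both groups. Stard10, at chr7:101321319-101346312, had 6.58 FPKM in WT against 6.95 FPKM in KD, or a log2 fold change of 0.08. Of the 2 marker genes that are not receptors, one therefore had a KD value about 2 times the WT value at a very low level, and the other had nearly equal values at a moderate level.

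**Figure D1:**
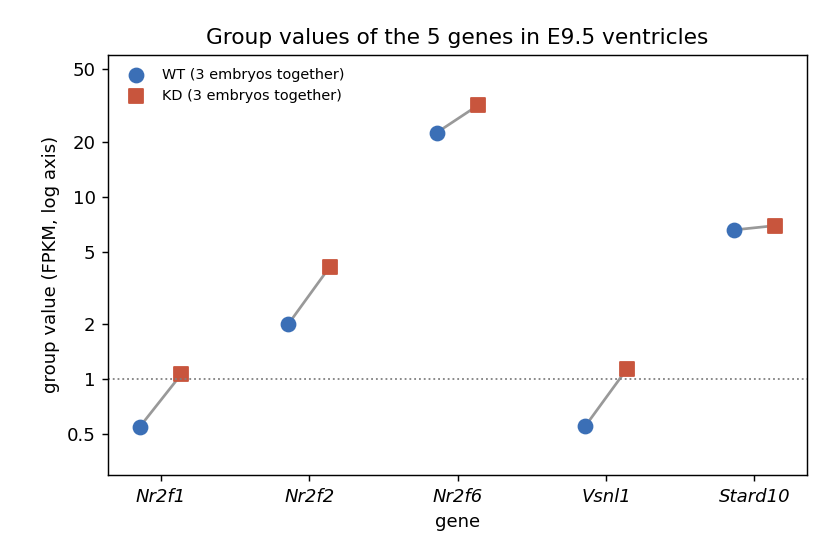
Group values of the 5 genes in FPKM on a log axis, with WT as circles and KD as squares, each a single value for 3 embryos together with no error bar, and a dotted line at 1 FPKM. Nr2f1 and Vsnl1 lie below 1 FPKM in WT against just above it in KD, while Nr2f6 goes from 22.5 to 31.8 FPKM.

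FPKM is scaled to transcript length, and the levels of the genes are set side by side on that scale alone. Other differences between genes in how well they are sequenced were not corrected for here. The order was the same in both groups, with Nr2f6 highest, followed by Stard10, Nr2f2, Vsnl1 and Nr2f1. Vsnl1 and Nr2f1, neighbours in this order, had levels in a ratio of 1.01 in WT and 1.06 in KD, and without values of single embryos it is not known whether any neighbours differ beyond their spread. Together the COUP-TF genes amounted to 25.0 FPKM in WT against 37.0 FPKM in KD. Nr2f6 made up 89.8% of this sum in WT and 85.9% in KD. Nr2f2 made up 8.04% and 11.2%, and Nr2f1 2.21% and 2.90%. Of the gain of 12.0 FPKM, Nr2f6 accounted for 77.8%, Nr2f2 for 17.9% and Nr2f1 for 4.35%. The level of Nr2f6 was 11.2 times that of Nr2f2 in WT and 7.66 times in KD.

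These ratios were set beside those of all genes. Of the 11606 genes that reached 1 FPKM in one group or both, called compared genes here, 1.68% had a KD value at least 2 times the WT value, and 1.21% had a KD value of at most a WT value divided by 2. Among the 5 genes, 2 were past this fold in the upward direction (Nr2f2 and Vsnl1) and 0 in the downward direction. With 1 FPKM added to both values 0 of the 5 were past it, beside 0.646% of all compared genes. Of the 3 that had 1 FPKM or more in both groups 1 was past it (Nr2f2), beside 0.545% of all 11001 such genes. At a fold of 1.5, the share of all 11606 compared genes was 4.84% upward, and 3 of the 5 genes were past it, with Nr2f1 added. Nothing about the 5 genes is read from these shares, since their KD and WT values were known when they were chosen. Over all compared genes 50.9% had a higher value in KD, and the median log2 fold change was 0.0049. Nr2f1 and Vsnl1 reached 1 FPKM in KD only, so they entered this set through the group in which they are high. The other 3 genes were at 1 FPKM or more in both groups.

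Ratios of low values scatter more than those of high ones over all genes. Among 1713 genes with a mean of the group values from 0.5 to 1.5 FPKM, the range of Nr2f1 and Vsnl1, 20.1% had a KD value at least 1.5 times the WT value, and the central 90% of log2 fold changes ran from -1.08 to 1.26. Among 2913 genes with a mean above 1.5 and up to 5 FPKM, the range of Nr2f2, 1.72% were at least 2-fold higher in KD and the central 90% ran from -0.57 to 0.68. Among 7704 genes with a mean above 5 FPKM, the range of Nr2f6 and Stard10, 1.77% were at least 1.5-fold higher in KD and the central 90% ran from -0.32 to 0.38. These ranges describe the table, and here too nothing is read from them about the 5 genes.

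**Figure D2:**
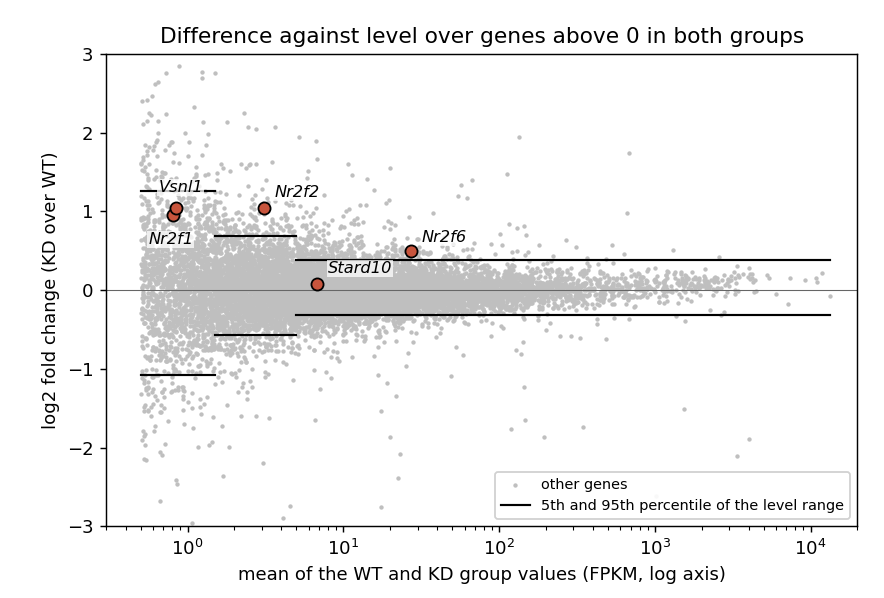
Log2 fold change (KD over WT) against the mean of the group values in FPKM (log axis) for 12272 genes above 0 in both groups with a mean of at least 0.5 FPKM, of which 12 lie beyond the vertical axis. Red points are the 5 genes and black lines give the 5th and 95th percentiles in each of the 3 level ranges, from -1.08 and 1.26 in the lowest to -0.32 and 0.38 in the highest. The 5 genes, chosen with these values known, are marked to show their level and difference.

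Nr2f1 and Nr2f2 each have a long non-coding RNA on the opposite strand. In the table Nr2f1 has the same locus as A830082K12Rik, and Nr2f2 the same locus as B130024G19Rik. In RefSeq the start sites of Nr2f1 and A830082K12Rik are 856 bases apart for the farther upstream start of Nr2f1, and those of Nr2f2 and B130024G19Rik are 1363 bases apart. By the GENCODE gene spans, each RNA starts inside the receptor gene it is paired with, on the other strand. In the GENCODE annotation 123 exonic bases (2.42% of those of Nr2f1) are shared with A830082K12Rik, and 643 (7.46% of those of Nr2f2) with B130024G19Rik. The Smart-Seq2 protocol does not keep the strand, so reads from the shared bases cannot be told apart. A830082K12Rik had 0.362 FPKM in WT against 0.229 FPKM in KD. B130024G19Rik had 0.00629 FPKM in WT against 0.181 FPKM in KD. Both RNAs were below 1 FPKM in both groups, and no ratio is given for them.

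The RefSeq promoter windows of Nr2f1 and Nr2f2, each from 250 bases before to 50 bases after a start site on the minus strand of GRCm38.p6, are shown because these paralogs were both about 2-fold higher in KD. They are in lower case throughout, since none of the motifs searched was found in them.

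Nr2f1, chr13:78198824-78199123, minus strand: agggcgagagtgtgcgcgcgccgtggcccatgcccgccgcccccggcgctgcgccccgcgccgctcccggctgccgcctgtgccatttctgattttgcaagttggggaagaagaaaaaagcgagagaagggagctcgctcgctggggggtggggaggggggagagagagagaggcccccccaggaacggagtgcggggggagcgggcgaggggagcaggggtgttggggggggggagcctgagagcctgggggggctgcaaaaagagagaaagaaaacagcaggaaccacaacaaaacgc

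Nr2f2, chr7:70366697-70366996, minus strand: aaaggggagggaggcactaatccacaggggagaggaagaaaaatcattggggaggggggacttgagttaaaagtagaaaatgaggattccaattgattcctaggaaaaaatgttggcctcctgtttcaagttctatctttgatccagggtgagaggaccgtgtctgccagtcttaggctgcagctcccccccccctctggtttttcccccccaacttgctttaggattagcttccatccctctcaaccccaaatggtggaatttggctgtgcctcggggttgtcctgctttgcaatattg

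The windows differ in composition, with 68.0% G and C for Nr2f1 and 49.7% for Nr2f2, beside a median of 52.7% over 32851 RefSeq promoter windows. The Nr2f6 window was richer still, with 82.7%. The motifs searched on both strands were the nuclear receptor half-site AGGTCA, the T-box half-site AGGTGT and the GATA sites TGATAA and AGATAA, none of which overlapped another match. Of all windows 16.3% held AGGTCA, 13.7% AGGTGT, 9.05% TGATAA and 11.2% AGATAA. Among the windows of the 5 genes, including a second one each for Nr2f1 and Vsnl1, the single match was TGATAA in that of Stard10, on the opposite strand and beginning at position -151 relative to the start site. That start site, at chr7:101317086, lies upstream of base 101321319, where the Stard10 locus of the table begins. A window without a match says only that these letters are not in it.

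The genes next to the 5 genes were examined for the same difference. The nearest compared gene beside Nr2f1 was Fam172a, with 7.92 FPKM in WT against 9.95 FPKM in KD, and on the other side Arrdc3, with 19.2 and 23.5 FPKM. Nr2f2 lies in a gene-poor stretch with 0 other compared genes within 500 kb, and its nearest compared neighbours were Arrdc4, with 15.4 FPKM in KD and a log2 fold change of 0.04, and Chd2, with 1.94 and 1.79 FPKM. Neither differed by a ratio near that of Nr2f2. Nr2f6 lies among 22 compared genes within 500 kb, of which 14 were higher in the KD group, beside 50.9% of all compared genes. Their median was 0.11 on the log2 scale. Of these 1 was at least 2-fold higher, beside 1.68% of all compared genes. It was Ocel1, which lies 0.43 kb from Nr2f6 and had 0.623 FPKM in WT against 1.40 FPKM in KD. It too reached 1 FPKM in KD only. At least 1.5-fold lower was 1 gene, beside 3.33% of all compared genes. It was B3gnt3, named after its values were seen, with 1.81 and 1.17 FPKM. The other near neighbours of Nr2f6 were Use1 (88.2 FPKM in WT against 95.3 FPKM in KD) and Ushbp1 (1.26 and 1.38 FPKM).

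Near Vsnl1, the chromosome maintenance gene Smc6 had 20.3 FPKM in WT against 21.2 FPKM in KD. The next compared gene on the other side, Fam49a, lies 825 kb away and had 19.2 and 17.7 FPKM. 4930511A02Rik, within 10 kb of Vsnl1, was listed at 0 in both groups. Near Stard10, Arap1 had 2.07 FPKM in KD at a log2 fold change of 0.47, and Atg16l2 had 2.39 and 2.78 FPKM. Among 9 compared genes within 500 kb of Stard10, 6 had a higher value in KD, beside 50.9% of all compared genes. At least 1.5-fold higher was 1 gene, beside 4.84% of all compared genes. It was Pde2a (2.03 and 3.49 FPKM), named after its values were seen.

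Of 9 genes listed as relatives in the NR2 family (Nr2c, Nr2e, Hnf4 and Rxr genes) 5 were compared, 2 were higher in KD, 0 were past 2-fold, and their median log2 fold change was -0.09. The retinoid X receptor gene Rxrb, the highest of them and a possible dimer partner of COUP-TF proteins, had 7.69 FPKM in WT against 6.77 FPKM in KD. Of 12 genes for proteins known to act with COUP-TF receptors or on the same response elements, 11 were compared, 10 had a higher value in KD, beside 50.9% of all compared genes, and their median was 0.14. Of these 1 was at least 2-fold higher, beside 1.68% of all compared genes. It was Bcl11a, which encodes a zinc finger protein also named COUP-TF interacting protein, with 1.10 FPKM in WT against 3.33 FPKM in KD, 3.03 times as high. The highest of them, the histone deacetylase gene Hdac1, had 90.6 and 87.1 FPKM. Zfpm2 (FOG2), a cofactor of GATA factors that also binds COUP-TFII, had 3.11 and 3.82 FPKM and was chosen for mention after its values were seen.

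Of 10 neuronal calcium sensor genes related to Vsnl1, 4 were compared, 1 was higher in KD, 0 were past 2-fold and the median was -0.20. Those with the lowest ratios, Ncald and Kcnip3, named after their values were seen, had 1.55 and 1.18 FPKM and 1.81 and 1.30 FPKM. The highest of them in WT, Hpcal1, had 21.6 FPKM in WT against 21.4 FPKM in KD, so this relative was far more abundant in the ventricle than Vsnl1. Of 14 genes of START domain and related lipid transfer proteins 13 were in the table and 8 were compared, with 0 past 2-fold and a median of -0.01. Stard7, which like Stard10 transfers phosphatidylcholine, had 42.0 and 48.8 FPKM and was the highest.

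The other genes listed as atrial markers lay on both sides of equality. Of 16 genes listed as atrial, none of them among the 5 genes, 14 were compared. Of these 6 were higher and 8 lower in KD, with 0 past 2-fold in either direction, and their median log2 fold change was -0.03. Myh6 is also on the pan-cardiac list, and with no atrial sample the list could not be checked against atrial tissue. The highest in WT were Myl7, the atrial light chain that early hearts express throughout (13643 FPKM in WT against 12907 FPKM in KD), Myl4 (6082 and 5896 FPKM) and Nppa, which encodes the atrial natriuretic peptide (2588 and 2967 FPKM). Myl7, Myl4 and Nppa are all high in the embryonic ventricle, and their levels would hide a small atrial share. Sln, the sarcolipin gene of the atrial list, was listed at 0 in both groups. Without an atrial sample of this stage, that value does not show whether atrial tissue was present. Of the list 1 gene was at least 1.5-fold higher, beside 4.84% of all compared genes. It was Gja5, which encodes the gap junction protein connexin 40, with 7.02 FPKM in WT against 12.1 FPKM in KD. Gja5 was chosen for mention after its values were seen. The compared genes ran from a log2 fold change of -0.32 for Kcnj5, a potassium channel gene, to 0.79 for Gja5. The summed level of the list was 22781 FPKM in WT against 22202 FPKM in KD.

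Of 12 ventricular genes, all compared, 10 were higher in KD, beside 50.9% of all compared genes, and 2 were lower, with a median of 0.13. Irx5, an Iroquois transcription factor, was the 1 gene past 2-fold, beside 1.68% of all compared genes, with 7.14 FPKM in WT against 14.6 FPKM in KD. Of the list 2 genes were at least 1.5-fold higher, beside 4.84% of all compared genes, and 0 were at least 1.5-fold lower. The other of the 2 was Pln (104 and 183 FPKM), named after its values were seen. The highest in WT after Myl2 were Myl3 (3955 and 4407 FPKM) and Nppb (485 and 360 FPKM). Pan-cardiac muscle genes had a median of -0.07 over 9 genes, with 1 higher and 8 lower in KD and 0 past 2-fold. The highest in WT, the troponin genes Tnnc1 (3330 and 3215 FPKM), Tnni1 (2924 and 2867 FPKM) and Tnnt2 (1842 and 1807 FPKM), were nearly equal in the groups. Inflow and sinus venosus genes, where Nr2f2 is also known to be expressed, had 4 of 8 genes compared and a median of -0.24, with 1 higher and 3 lower in KD, but the median was 0.37 when genes below 1 FPKM were kept. The highest in WT were Wnt2, a signalling gene of the posterior heart (12.7 FPKM in KD, log2 fold change -0.73), the pacemaker channel gene Hcn4 (3.57 and 2.89 FPKM) and the T-box gene Tbx3 (3.53 and 3.11 FPKM). The 1 compared gene that was higher in KD was Tbx18, also on the epicardial list and named after its values were seen, with 3.46 and 6.56 FPKM. Atrioventricular canal genes had a median of -0.19 over 5 genes, with 1 higher and 4 lower in KD. The highest in WT were Msx2 (8.98 and 6.26 FPKM), Rspo3 (6.39 and 4.58 FPKM) and Bmp2 (5.18 and 6.34 FPKM).

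The compared epicardial and mesenchymal markers had higher KD values. Of 9 epicardial genes 7 were compared, all 7 were higher in KD, beside 50.9% of all compared genes, 4 were past 2-fold, beside 1.68%, and the median was 1.10. Bnc1 and Aldh1a2 (0.872 and 1.74 FPKM) reached 1 FPKM in KD only and so entered through the group in which they are high. Of the 5 genes of the list at 1 FPKM or more in both groups, 3 were past 2-fold, beside 0.545% of all such genes. The 4 included Tcf21 (11.9 FPKM in WT against 25.5 FPKM in KD), Upk3b (7.80 and 20.7 FPKM) and Upk1b (9.17 and 22.1 FPKM), and the fourth was Bnc1, at 0.439 and 1.62 FPKM. Bnc1, Aldh1a2 and Pdgfra were named after their values were seen. The epicardial regulator Wt1, the most abundant of these genes in WT, had 13.8 and 19.2 FPKM. The list summed to 47.8 FPKM in WT against 98.5 FPKM in KD, and Msln, at 0.0483 and 0.0683 FPKM, was near 0 in both. Of 8 mesenchymal and pharyngeal genes 6 were compared, 6 were higher in KD and 2 were past 2-fold, beside the same 50.9% and 1.68%, with a median of 0.56 and a summed level of 42.4 FPKM in WT against 57.6 FPKM in KD. The 2 were Col1a1 (1.76 and 4.64 FPKM) and Pdgfra (0.969 and 2.78 FPKM). Pdgfra too reached 1 FPKM in KD only, and over the 5 genes at 1 FPKM or more in both groups the median was 0.42, with 1 past 2-fold, beside 0.545%. The highest in WT were Col3a1 (23.0 and 30.7 FPKM), Crabp1 (10.6 and 11.2 FPKM) and Postn (3.41 and 4.31 FPKM). Nr2f2 is expressed in such cells, and the part of epicardial or mesenchymal cells in the higher values of the 5 genes was not tested.

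Endothelial genes had medians near 0. The median was 0.07 over 8 general endothelial genes, -0.01 over 4 venous genes and 0.06 over 6 arterial genes, with 0 past 2-fold in each list. The highest general ones in WT were Emcn (43.1 and 57.4 FPKM), Pecam1 (24.8 and 25.6 FPKM) and Tie1 (22.1 and 23.7 FPKM), and the highest arterial ones in WT Gja4 (28.8 and 39.8 FPKM), Nrp1 (20.8 and 22.6 FPKM) and Efnb2 (5.68 and 5.44 FPKM). Ephb4, a venous receptor gene, had 12.7 FPKM in WT against 15.4 FPKM in KD, Aplnr had 3.42 and 3.24 FPKM, and Flt4 had 2.90 and 3.03 FPKM. The venous list, whose cells express Nr2f2, summed to 21.4 FPKM in WT against 23.8 FPKM in KD. Of 5 hepatic and yolk sac genes 0 reached 1 FPKM in either group, the list summed to 0.607 FPKM in WT against 1.37 FPKM in KD, and Alb and Fgb were listed at 0 in both. Its highest gene, Ttr, had 0.425 and 0.790 FPKM, followed by Apoa1 (0.175 and 0.292 FPKM) and Afp (0.00717 and 0.294 FPKM). Tbx18, Tbx3 and Myh6 each stand in a pair of these lists, and no list was tested.

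**Figure D3:**
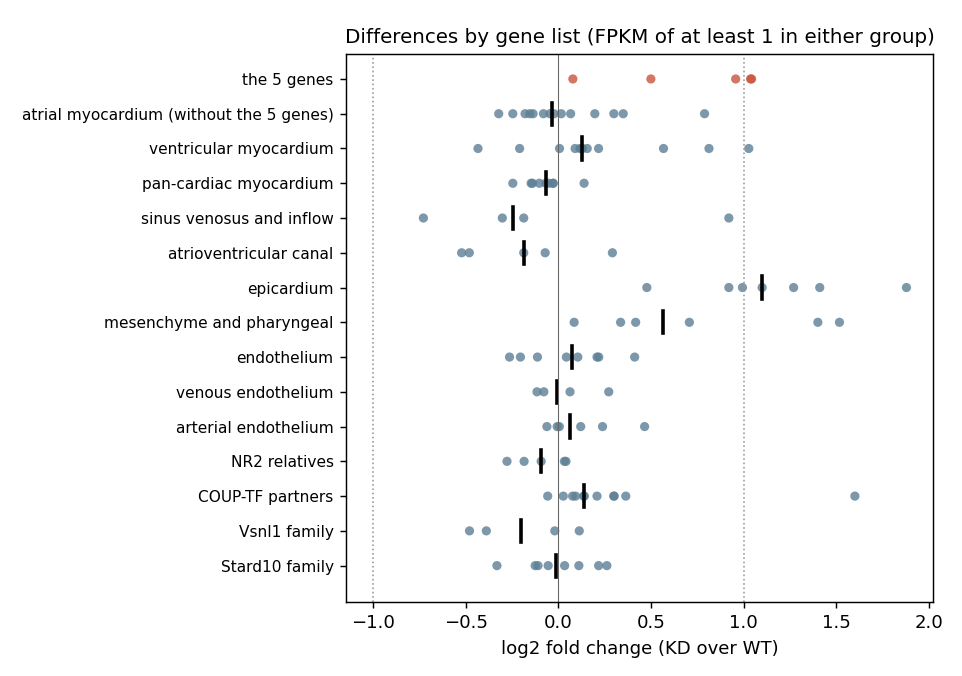
Log2 fold change (KD over WT) of each compared gene, 1 point a gene, for the 5 genes (red) and for 14 gene lists, with black bars at list medians and dotted lines at 2-fold. The epicardial points all lie to the right of 0 around a median of 1.10, while the atrial points, without the 5 genes, lie on both sides of a median of -0.03.

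With a single value in each group, likeness of pattern between genes comes down to closeness of 2 values. On the scale of log2(FPKM + 1) the genes nearest to Nr2f2 were Rnd1 (1.98 FPKM in WT against 4.08 FPKM in KD), Actn3 (1.95 and 4.19 FPKM) and Vaultrc5 (2.09 and 4.21 FPKM), at Euclidean distances of 0.024, 0.030 and 0.042. The likeness is over 2 group values.

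The choice of scale changed the differences of the low genes the most. With 1 FPKM added to both values, the log2 fold change was 0.42 for Nr2f1, 0.46 for Vsnl1, 0.77 for Nr2f2, 0.48 for Nr2f6 and 0.07 for Stard10. An added constant cannot turn the direction of a difference, and the 2 scalings without one moved every gene by the same small amount. With 1 FPKM added Nr2f1 and Vsnl1 no longer stood above Nr2f6, while Nr2f2 was the highest of the 5 genes with and without it.

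**Figure D4:**
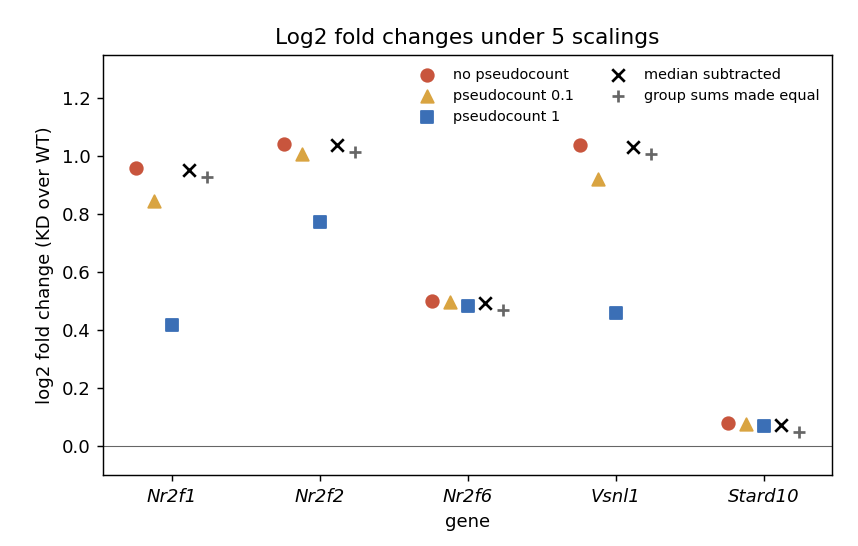
Log2 fold change (KD over WT) of the 5 genes with no pseudocount and under 4 other scalings, 1 symbol for each scaling. The squares, with 1 FPKM added, lie at 0.42 for Nr2f1 and 0.46 for Vsnl1, well below the circles at 0.96 and 1.04, while those of Nr2f6 and Stard10 nearly coincide.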

How the data were processed

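Libraries were made by Smart-Seq2 from ventricles of 3 WT and 3 KD embryos and sequenced single-end. The submitters' processing notes name TopHat, Bowtie2, Cuffdiff and mm10, without versions. The authors deposited 1 Cuffdiff table that gives each gene 1 FPKM value for WT and 1 for KD (KD under the name KO). Its columns of fold changes, test scores, p-values and q-values are the authors' own comparison and were not used. Depth is unknown, and neither replicates nor a paired fit could be used. The 5 genes and all gene lists were chosen with earlier results of these data known.

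The log2 ratio of the group values was computed with no pseudocount. A gene was compared when it reached 1 FPKM in one group or both, and 2-fold and 1.5-fold served as descriptive limits with no test. Level ranges were added after seeing the data. Named genes were the 5 genes, their neighbours (the next compared gene on each side, and genes within 10 kb), the highest gene in WT of each family list, the 3 highest in WT of each marker list, and genes of the lists past 2-fold (in marker lists, with 1 FPKM in both groups). Irx4, Kcnj5, Sln, Msln, Alb and Fgb fall outside this rule and were named after their values were seen. 58 genes at 0 in 1 group entered no median. Coordinates are on mm10 with 1 added to the start. Promoters are from RefSeq (GRCm38.p6) and coding sequences from GENCODE M21, which replaced the planned protein comparison. The counting of genes past the fold was checked on simulated data with planted differences. This checks the counting alone, not how reliable a 2-fold difference is in these data. Python 3.11.15, NumPy 2.4.6, pandas 2.3.3, Biopython 1.88 and Matplotlib 3.10.9 were used.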

Additional observations from a re-analysis of the deposited data

How the results depend on the processing

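No paired analysis was possible because each group has a single value and single embryos have none, and for the same reason no replicate could be left out. With no spread between embryos, a move of at least 0.1 on the log2 scale was counted as a change. Of the 5 genes, 3 changed by this measure. With a pseudocount of 1 the log2 fold change was 0.42 for Nr2f1, 0.46 for Vsnl1 and 0.77 for Nr2f2, and with a pseudocount of 0.1 it was 0.85 for Nr2f1 and 0.92 for Vsnl1. Subtracting the median and making the group sums equal moved each of the 5 values by less than 0.1, and none of these settings could have turned the direction of a gene that was about 2-fold higher. The number of genes at least 2-fold higher in KD was 195, which counts genes at 0 in WT that reached 1 FPKM in KD. It was 1067 with no filter on low values, over the 15739 genes above 0 in both groups. It was 60 when both groups had to reach 1 FPKM, 60 when one had to reach 5 FPKM, 75 with a pseudocount of 1 and 562 at a fold of 1.5. The number lower in KD, 141, was 857, 49, 57, 67 and 387 in the same order. With a mean of at least 1 FPKM, chosen after seeing the data, the counts were 146 and 108. Fewer or more genes enter these counts by construction. The inflow median went from -0.24 to 0.37 with no filter, which adds 4 genes below 1 FPKM. With a pseudocount of 1 the epicardial median was 0.86 and the mesenchymal median 0.45, and with no filter the median of the relatives of Vsnl1 was -0.32. With the depth unknown, the precision of Nr2f1 and Vsnl1, near 1 FPKM, cannot be stated.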

Other observations

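Several genes of the same lists were below 1 FPKM in both groups and entered no comparison, and their values are given here after having been seen. Shox2, a transcription factor of the sinus node, had 0.282 FPKM in WT against 0.589 FPKM in KD. Osr1, a gene of the posterior second heart field and inflow, had 0.233 and 0.673 FPKM, and Isl1, a second heart field gene, had 0.559 and 0.361 FPKM. The epicardial gene Sema3d had 0.324 FPKM in WT against 0.930 FPKM in KD. On the mesenchymal list Prrx1 had 0.324 and 0.623 FPKM, while Dlx5 had 0.363 and 0.134 FPKM. Among the relatives of Vsnl1, Kcnip1 had 0.118 and 0.636 FPKM, Kcnip2 0.341 and 0.285 FPKM and Kcnip4 0.289 and 0.151 FPKM. Hpcal4 had 0.0106 and 0.00286 FPKM, Hpca was listed at 0 in WT against 0.0483 FPKM in KD, and Rcvrn was listed at 0 in both groups. Both directions thus occur among them. These genes lie at levels where ratios scatter widely.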
